A study of Mus musculus with 4 samples.

Results

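This account follows 37 interferon-stimulated genes in leukocytes of the mouse heart, chosen by symbol from a fixed list. Of the 37 genes, 36 have a row among the 31053 genes of the count matrices, and Mx2 has none. The genes were grouped by role into 5 sensors, 3 transcription factors, 18 antiviral effectors, 2 feedback regulators, 2 chemokines and 7 others.

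The leukocytes came from the left ventricle of C57Bl6J mice that had sham treatment or DOCA-salt (deoxycorticosterone acetate with salt, a regimen that raises blood pressure). The perfused tissue was minced and digested, CD45-bearing cells were enriched on beads, and live CD45+ single cells were sorted. Each group held 4 mice, which the labels call biological replicates and which carried hashtag antibodies. The 4 mice of a group were pooled into 1 droplet-based 5' single-cell library per group, so treatment and library cannot be told apart. The labels give no age and no time after treatment, and every mouse shares the C57Bl6J genotype.

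Type I interferons bind a receptor present on nearly all cells, and the kinases Jak1 and Tyk2 then start a signal that reaches the nucleus. A transcription factor complex that holds Stat2 and Irf9 binds the interferon-stimulated response element and switches on a shared set of antiviral genes. Interferon-gamma, made mainly by NK and T cells, acts through a receptor of its own and favours guanylate-binding proteins and the chemokines Cxcl9 and Cxcl10. In the injured heart, macrophages and neutrophils with this antiviral program have been described as a distinct state.

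The response element has a core of a pair of GAAA words separated by 2 free bases, which is the motif GAAANNGAAA. It was searched on both strands, with overlapping matches allowed, in the 250 bases before each start site of the RefSeq promoter table (build GRCm38.p6). The core was present in 978 of all 32851 windows (2.98%) and in 936 of 27025 genes (3.46%). Of the 28 members with a window, 13 held it (46.4%), and 9 members had no window. The stretches below are shown because Isg15, Rsad2, Ifit3, Ifit1 and Cxcl10 had their highest macrophage-like levels in DOCA-salt mouse 1 or 4, and Bst2 was among the 5 most abundant members of several classes. Capitals mark the core on either strand, and where cores overlap the capitals run together.
Isg15: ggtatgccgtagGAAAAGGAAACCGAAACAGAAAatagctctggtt
Rsad2: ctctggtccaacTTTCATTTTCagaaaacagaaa
Ifit3: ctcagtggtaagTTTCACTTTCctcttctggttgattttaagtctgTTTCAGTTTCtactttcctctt
Ifit1: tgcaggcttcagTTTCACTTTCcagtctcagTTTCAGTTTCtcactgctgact
Cxcl10: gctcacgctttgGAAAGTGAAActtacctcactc
Bst2: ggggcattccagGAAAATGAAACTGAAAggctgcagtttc

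All stretches are written 5' to 3' on the strand of the gene. The Isg15 stretch lies at chr4:156200863-156200908 on the minus strand and holds 3 overlapping cores, the nearest starting 66 bases before the start site. The Rsad2 stretch lies at chr12:26456551-26456584 (minus strand) with 1 core, and the Cxcl10 stretch at chr5:92349081-92349114 (minus strand) with 1 core. The Ifit3 stretch lies at chr19:34583361-34583428 and the Ifit1 stretch at chr19:34640773-34640825, both on the plus strand with 2 cores each in the opposite orientation. The Bst2 stretch lies at chr8:71537575-71537614 on the minus strand with 2 overlapping cores. The windows of Ifitm3, Irf7, Ddx58 and Oasl1 did not hold these letters. The core was found in 9 of 9 genes of the interferon-gamma type GTPase list that had a window and in 1 of 12 upstream sensors and adaptors. Several members are neighbours in the genome (GRCm38). Ifit1, Ifit2, Ifit3 and Ifit3b lie within 99.3 kb of chromosome 19, and Ifi203 and Ifi204 within 195.4 kb of chromosome 1.

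After filtering, 4080 sham and 6864 DOCA-salt cells were assigned to a mouse, with medians of 2811.5 and 3228 UMIs (unique transcript molecules) per cell, from 624 to 2172 cells per mouse. The cells fell into 22 clusters, of which 5 stayed unnamed. The others were named from marker genes as X-like classes, with 4818 B-like, 1810 NK-like, 1342 T-like, 1045 macrophage-like, 231 nonclassical monocyte-like, 167 neutrophil-like, 164 classical monocyte-like, 138 cDC2-like (dendritic) and 84 ILC2-like (innate lymphoid) cells. Cells of unnamed clusters were 12.7% of sham and 9.15% of DOCA-salt cells. Each class had its own markers highest among the classes, apart from Mgl2 of the cDC2-like and Hp of the classical monocyte-like list. The libraries shared 41 cell barcodes. Neutrophil-like cells numbered 13 in all sham mice together and were not tested.

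DOCA-salt mouse 1 stood apart in these genes, so the main results are given with and without it. It was picked by its high levels of these same members, so leaving it out tends to lower the DOCA-salt levels. Values and calls without it show how a result depends on that mouse and are no separate tests. Summed over all cells, DOCA-salt mouse 1 had the highest level of 31 of the 36 measured members. Members made up 0.407% of its UMIs against 0.177% to 0.246% in the other 7 mice. These sums also depend on the mix of classes. Macrophage-like cells were 340 of its 2172 cells and numbered 35 to 175 in the other mice. Within macrophage-like cells its share was 0.890% against 0.322% to 0.556%. Within B-like cells it was 0.151%, inside the sham range of 0.132% to 0.169%. The part of the class mix was not tested, and the count of highest levels over all genes is not given here. The macrophage-like cells of DOCA-salt mouse 1 were also the deepest, with a median of 4437.5 UMIs against 2697 to 3632.5 in the other mice. The part of that depth was not tested outside the thinned counts given below.

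Levels are given in CPM, a gene's UMIs summed over the cells of a class and mouse for every 1000000 UMIs of that class and mouse. Each UMI marks the 5' end of a transcript, so CPM was not divided by gene length. Myeloid classes had the highest mean level over the 8 mice for most members: classical monocyte-like cells for 13, neutrophil-like for 8, macrophage-like for 6, cDC2-like for 5 and nonclassical monocyte-like for 1, with B-like cells highest for Oasl1 and Ddx58 and T-like cells for Ifi47. Since classes are clusters of these same cells, this order is a description. With the classes ranked for each member, 6 to 8 of the 8 neighbouring pairs differed by no more than the larger SD of the pair. Most places in the order are therefore not resolved.

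Ifitm3, which blocks the fusion of viruses in endosomes, was the leading member of circulating-type myeloid cells. It averaged 4686 ± 929 CPM in classical monocyte-like and 3932 ± 504 CPM in nonclassical monocyte-like cells (SD over 8 mice), 1443 ± 821 in cDC2-like and 1233 ± 387 in macrophage-like cells, and its lowest class was B-like, at 36.7 CPM. The monocyte-like pair differed by less than 1 SD of the higher class. Ifi27l2a, a small interferon-inducible protein, led in macrophage-like cells at 1470 ± 584 CPM and was at 432 ± 157 in T-like, 412 ± 143 in B-like and 79.7 ± 64.6 in NK-like cells. It was thus also the most abundant member of T-like and B-like cells. Ifi47, a GTPase of the interferon-gamma inducible family, was at 396 ± 28.6 CPM in T-like and 330 ± 42.5 CPM in NK-like cells, and Ifi203, a nucleic-acid binding protein of the PYHIN family, at 255 ± 32.3 CPM in B-like cells.

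Other members were among the 5 highest of particular classes. Bst2 (tetherin, which holds virions at the cell surface) averaged 691 ± 380 CPM in cDC2-like, 346 ± 81.5 in macrophage-like and 127 ± 39.6 in T-like cells. Irf7, the factor that amplifies interferon-alpha transcription, averaged 299 ± 88.5 CPM in classical monocyte-like and 101 ± 28.7 in NK-like cells. Ifi204 averaged 141 ± 37.5 CPM in macrophage-like cells, and Zbp1, a sensor of Z-form nucleic acid, 148 ± 64.3 in nonclassical monocyte-like cells, where Parp14, an ADP-ribosyltransferase, averaged 99.1 ± 19.2. Oasl2 was among the 5 highest of neutrophil-like cells, at 337 ± 344 CPM from 91 UMIs. Ifi35 averaged 98.9 ± 12.6 CPM in NK-like and 155 ± 52.0 in cDC2-like cells.

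A few high means rested on very few cells. The 6 classical monocyte-like cells of sham mouse 4 gave Cxcl10 at 3692 CPM, and the other 7 mice were between 0 and 86.4. The 3 neutrophil-like cells of sham mouse 2 gave Rsad2 at 3410 and Isg15 at 2653 CPM, and the other 7 mice had at most 92.3 and 237 CPM. At the low end, Ifi44 gave 15 UMIs in all cells and Cxcl9 119.

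The score of a class and mouse was the mean of log2(CPM + 1) over the 36 measured members, and it has no test. In macrophage-like cells it was 5.18, 5.73, 4.71 and 5.52 in sham mice 1 to 4 and 6.78, 5.40, 4.56 and 5.89 in DOCA-salt mice 1 to 4. DOCA-salt mouse 1 was above every other mouse and DOCA-salt mouse 3 below every other, and the groups overlapped. The difference of the means, DOCA-salt minus sham, was 0.37, and -0.00 without DOCA-salt mouse 1.

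In B-like cells the score was 3.57, 3.82, 3.94 and 3.77 in sham mice and 3.94, 3.35, 3.13 and 3.42 in DOCA-salt mice. DOCA-salt mice 2, 3 and 4 were below every sham mouse, while DOCA-salt mouse 1 was level with the highest sham mouse. The difference was -0.32, and -0.48 without DOCA-salt mouse 1. T-like cells differed by 0.04, and by -0.23 without that mouse, whose 4.86 compares with 3.73 to 4.23 in the other 7 mice. NK-like cells differed by 0.32, and by 0.08 without it. In classical monocyte-like cells the difference was 0.98 (0.62 without), in cDC2-like cells 0.64 (0.05 without) and in nonclassical monocyte-like cells -0.10 (-0.06 without). Sham mouse 3, with 3 classical monocyte-like cells, scored 3.03 there against 5.08 to 5.76 in the other sham mice. The members' mean share of UMIs went the other way. It was 1.07% in sham and 0.864% in DOCA-salt classical monocyte-like cells, and 0.387% and 0.355% in cDC2-like cells, with overlap in both classes. With the members left out of clustering the difference was 1.32 in cDC2-like and 0.16 in macrophage-like cells, and with a pseudocount of 10 it was 0.30 in classical monocyte-like, 0.18 in cDC2-like and 0.12 in NK-like cells.

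**Figure D1:**
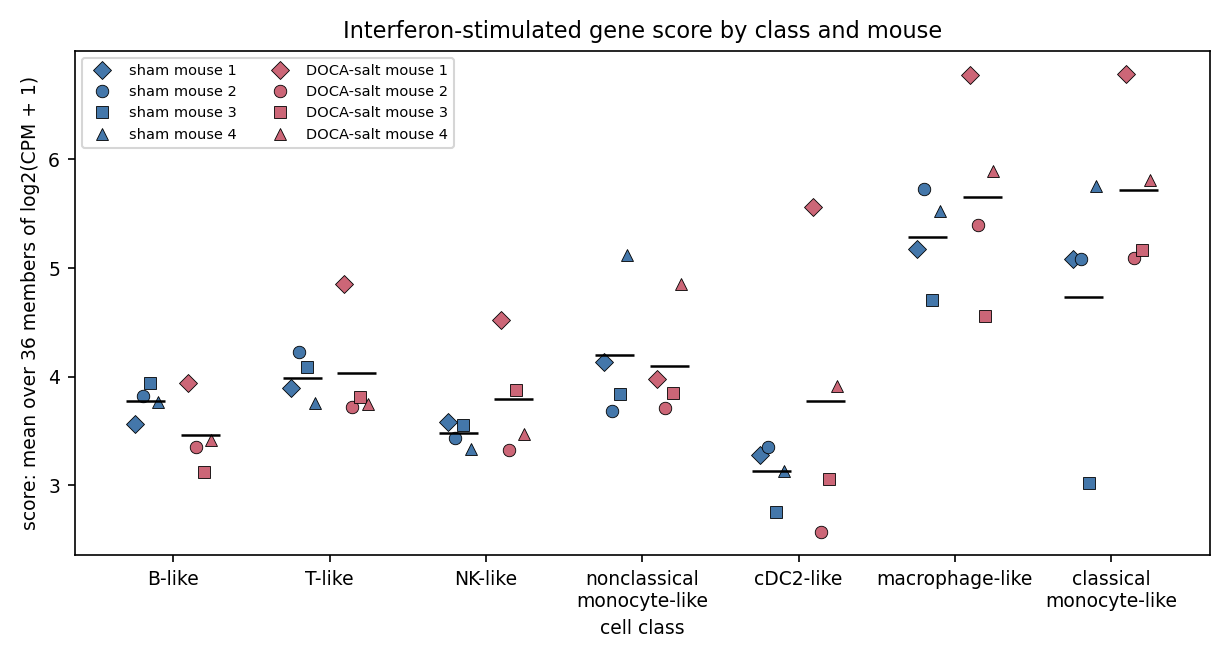
Score of the 36 measured members (y axis, mean of log2(CPM + 1)) for each mouse in each leukocyte class (x axis), with sham mice in blue, DOCA-salt mice in red, a symbol per mouse number and a line at each group's mean. DOCA-salt mouse 1 lies highest in macrophage-like cells at 6.78 and in T-like cells at 4.86, and DOCA-salt mice 2 to 4 lie below the sham mice in B-like cells.

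B-like cells were compared first because they were the most numerous class. Of 24 members tested there, 1 passed the test, Ifitm3, which was higher in DOCA-salt mice, and 20 had a change below 0. The genes with a negative change included Ifi27l2a, the ubiquitin ligase Trim30a, Parp14 and the RNA sensor Ddx58 (RIG-I), none of which passed the test with all mice. Over all 8614 genes tested in the class, 127 passed (1.47%). Changes are log2 ratios of DOCA-salt to sham from edgeR's quasi-likelihood test with Benjamini-Hochberg adjustment over all genes of the class, at a threshold of 0.05. A change above 0 was found for 4 of the 24 members, beside 50.8% of all genes tested. The members' median change was -0.23, beside 0.00 for all genes tested, and -0.45 without DOCA-salt mouse 1, when 2 of 24 were above 0. An unadjusted p under 0.05 was found for 10 of the 24 members and for 1123 of the 8614 genes.

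Among sensors, Ddx58 was at 62.9, 66.1, 87.0 and 65.8 CPM in the B-like cells of sham mice and 57.8, 48.2, 57.8 and 48.9 in those of DOCA-salt mice. All 4 DOCA-salt mice were below all sham mice, with a change of -0.38 ± 0.11 (SE, edgeR adjusted p = 0.112) and of -0.43 without DOCA-salt mouse 1. Parp14 was at 46.7, 52.9, 42.3 and 44.9 CPM in sham mice and 36.1, 33.3, 35.4 and 31.3 in DOCA-salt mice, again without overlap (-0.47 ± 0.12, edgeR adjusted p = 0.0635, and -0.51 without DOCA-salt mouse 1). Ifi47 was the third tested member with no overlap, at 63.4 to 91.5 CPM in sham and 44.9 to 59.3 in DOCA-salt mice (-0.47 ± 0.13, edgeR adjusted p = 0.0997, and -0.47 without DOCA-salt mouse 1). Such separation below sham was seen in 3 of 24 members and in 4.88% of all genes tested, and separation above sham in 1 of 24 members (Ifitm3) and in 3.34% of all genes.

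Ifi27l2a had the largest absolute change among uncalled members with at least 50 CPM. It was at 409, 616, 509 and 499 CPM in sham mice and 474, 254, 183 and 357 CPM in DOCA-salt mice. The groups overlapped only through DOCA-salt mouse 1. The change was -0.66 ± 0.21 (edgeR adjusted p = 0.172), and without that mouse it passed the test at -0.92 (edgeR adjusted p = 0.0352). Over all 8666 genes then tested, 25 passed as higher and 58 as lower. Trim30a was at 43.1, 60.8, 61.6 and 73.0 CPM in sham mice and 46.6, 34.9, 37.8 and 42.5 CPM in DOCA-salt mice. Its change of -0.54 ± 0.15 (-0.62 without DOCA-salt mouse 1) had an edgeR adjusted p of 0.0864, and it passed without sham mouse 1 (-0.67, adjusted p = 0.0163).

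The factors Stat2, Irf9 and Irf7 had changes of 0.04, -0.18 and -0.26, none past the test, and of -0.08, -0.19 and -0.54 without DOCA-salt mouse 1. Of 11 antiviral effectors tested, 9 had a change below 0, with a median of -0.15 and extremes of -0.86 in Ifit2 and 0.89 in Ifitm3. Isg15, a ubiquitin-like modifier, was at 9.19, 13.8, 14.5 and 12.6 CPM in sham and 22.8, 14.9, 2.36 and 6.42 CPM in DOCA-salt mice, so the DOCA-salt mice spanned a wider range than sham on both sides. Its change of 0.12 became -0.40 without DOCA-salt mouse 1.

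**Figure D2:**
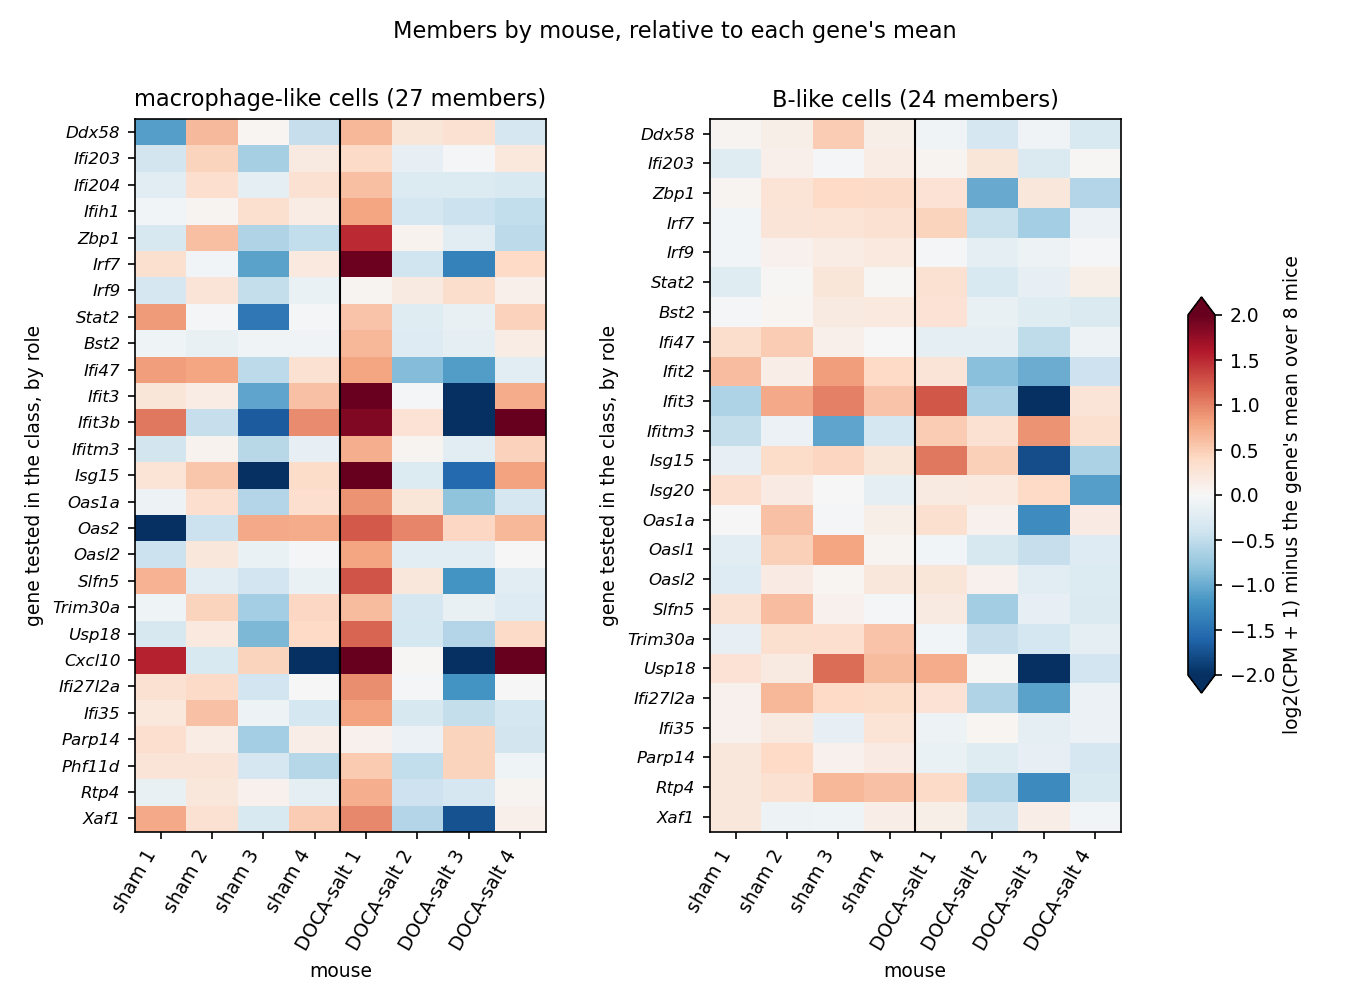
Level of each tested member in each mouse, as log2(CPM + 1) minus the gene's mean over the 8 mice (colour scale, values past 2 in either direction drawn at the end colours), in macrophage-like cells (left, 27 members) and B-like cells (right, 24 members). DOCA-salt mouse 1 is red for most members in macrophage-like cells, and DOCA-salt mice 2 to 4 are blue for most members in B-like cells, where Ifitm3 is red in all 4 DOCA-salt mice.

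Ifitm3 was at 24.0, 31.2, 15.7 and 26.3 CPM in the B-like cells of sham mice and 48.4, 42.0, 63.7 and 42.5 CPM in those of DOCA-salt mice. The means were 24.3 ± 6.48 and 49.1 ± 10.2 CPM (SD, n = 4 mice each), and every DOCA-salt mouse was above every sham mouse. The change was 0.89 ± 0.17 (SE, edgeR adjusted p = 0.0191), and 0.88 without DOCA-salt mouse 1 (adjusted p = 0.0513). The call was also lost without sham mouse 1 (0.85, adjusted p = 0.0617) and without sham mouse 4 (0.89, adjusted p = 0.0625), and with a stricter hashtag margin of 5 (0.40, adjusted p = 0.387). Over all alternatives the adjusted p ran from 0.000174 to 0.387.

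Transcripts of myeloid cells moved with it. Lyz2 (lysozyme of myeloid cells) was at 170, 172, 175 and 167 CPM in the B-like cells of sham mice and 314, 247, 288 and 249 in those of DOCA-salt mice (0.68, edgeR adjusted p = 0.000692, and 0.62 without DOCA-salt mouse 1), and Apoe, a macrophage lipoprotein, at 237 to 306 and 378 to 478 CPM (0.60, edgeR adjusted p = 0.00457, and 0.53 without DOCA-salt mouse 1). All 8 macrophage markers were detected in B-like cells, and their summed level was 195 to 252 CPM in sham and 204 to 270 in DOCA-salt mice. The 7 classical monocyte markers summed to 20.5 to 36.3 CPM in sham and 48.6 to 56.4 CPM in DOCA-salt mice, without overlap. Nonclassical monocyte markers summed to 12.6 to 19.6 and 14.4 to 23.6 CPM, which overlapped. The 7 neutrophil markers summed to 1.79 to 8.46 CPM in sham and 42.4 to 65.0 CPM in DOCA-salt mice. Ifitm3 UMIs per Lyz2 UMI were 0.142 ± 0.0388 in sham and 0.179 ± 0.0292 in DOCA-salt mice (SD, n = 4), which overlapped. The part of these transcripts in the Ifitm3 result was not tested beyond the values that follow.

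Counted by cell, Ifitm3 was seen in 4.26% to 8.49% of B-like cells in sham mice and 11.8% to 16.3% in DOCA-salt mice. After thinning each cell to 1500 UMIs the shares were 2.72% to 4.4% and 6.37% to 9.89%. C1qa, a complement gene of macrophages that B cells should lack, was seen in 6.59% to 10.9% and 7.69% to 11.6% of the same thinned cells, and in 7 of the 8 mice its share was above that of Ifitm3. Between the groups the C1qa shares overlapped and the Ifitm3 shares did not. The thinned Lyz2 shares did not overlap either, at 19.5% to 21.1% in sham and 30.5% to 34.6% in DOCA-salt mice. Those of Apoe, at 22.1% to 29.8% and 34.7% to 40.4%, were likewise apart. The source of the Ifitm3 transcripts in B-like cells was not tested. Median depths of B-like cells were 2709.5 UMIs in sham and 3008 in DOCA-salt mice, against 2966 and 3903 in macrophage-like cells. When cells holding a UMI of Lyz2, Apoe, C1qa, C1qb or C1qc were left out, 634 of 2070 sham and 378 of 2748 DOCA-salt B-like cells were left. Ifitm3 then differed by 1.37 and did not pass the test (edgeR adjusted p = 0.132). The same transcripts were higher in NK-like cells, Lyz2 by 0.87 (edgeR adjusted p = 0.00139, and 0.73 without DOCA-salt mouse 1) and Apoe by 0.99 (edgeR adjusted p = 0.00279, and 0.90 without it), where Ifitm3 differed by 0.63 (edgeR adjusted p = 0.604), and by 0.17 without DOCA-salt mouse 1. In T-like cells Lyz2 differed by 0.01, Apoe by -0.04 and Ifitm3 by -0.09, and by -0.27, -0.42 and -0.93 without DOCA-salt mouse 1.

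**Figure D3:**
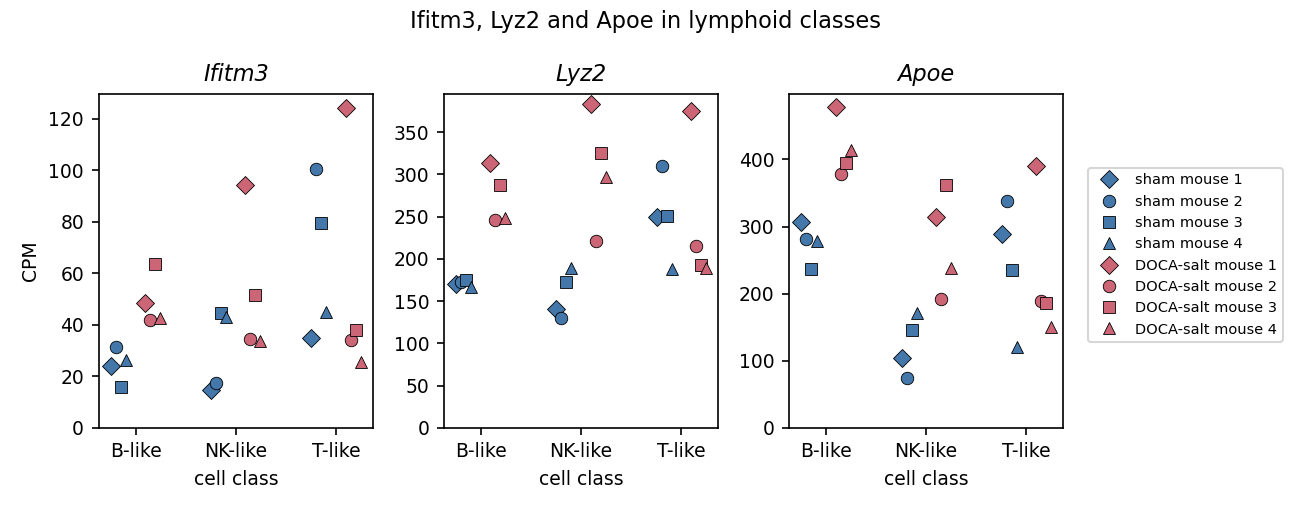
CPM of Ifitm3, Lyz2 and Apoe (y axes) in B-like, NK-like and T-like cells (x axis) for each mouse, with sham in blue, DOCA-salt in red and a symbol per mouse number. In B-like cells the DOCA-salt mice lie above all sham mice for each of the 3 genes, and in T-like cells, where DOCA-salt mouse 1 is highest, the groups overlap for each.

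In macrophage-like cells no member passed the test. Of 27 members tested, 20 had a change above 0, with a median of 0.23, and DOCA-salt mouse 1 had the highest level of 20. Over all 4836 genes tested in the class, 16 passed (0.331%), 49.6% had a change above 0, and the median was -0.00. An unadjusted p under 0.05 was found for 2 members, Cxcl10 and Ifitm3, beside 8.89% of all genes tested, and DESeq2 called 0 members. Without DOCA-salt mouse 1 the median of the members was -0.10 and 7 of 27 were above 0. The share of tested genes that were highest in DOCA-salt mouse 1 was 74.1% of members and 14.7% of all genes. With no filter on low counts 8 members passed, Isg15, Irf7, Cxcl10, Rsad2, Ifit1, Ifit2, Ifit3 and Ifit3b. The number of all genes that passed under that setting is not given here. No member had its DOCA-salt mice all above the sham mice (3.06% of all genes) or all below (2.52% of all genes).

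Cxcl10, which attracts T and NK cells through Cxcr3, had the largest change. It was at 83.9, 22.4, 38.5 and 5.96 CPM in sham mice and 176, 28.7, 0 and 177 CPM in DOCA-salt mice. DOCA-salt mice 1 and 4 were above every sham mouse and DOCA-salt mouse 3 had no UMI. The change of 1.93 ± 0.75 had an edgeR adjusted p of 0.401, was 1.53 without DOCA-salt mouse 1 and was 0.90 when the members were left out of clustering.

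Isg15 was at 75.5, 92.5, 11.0 and 80.5 CPM in sham macrophage-like cells and 296, 51.6, 20.6 and 109 CPM in DOCA-salt mice (0.98 ± 0.56, edgeR adjusted p = 0.675). Without DOCA-salt mouse 1 the change was -0.02. Irf7 was also highest in DOCA-salt mouse 1, at 117, 89.7, 44.0 and 107 CPM in sham and 365, 70.2, 36.1 and 123 CPM in DOCA-salt mice (0.88, and -0.09 without DOCA-salt mouse 1). For these genes DOCA-salt mice 2 and 3 were at or under the level of most sham mice.

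A second mouse was high in a smaller set, as long as the members took part in the clustering. Rsad2 (viperin, which makes a chain-terminating nucleotide) did not reach the count needed for the test and was at 0, 8.41, 0 and 14.9 CPM in sham and 93.9, 21.5, 0 and 95.6 CPM in DOCA-salt macrophage-like cells. Ifit1, which binds viral RNA, was also untested, at 0, 28.0, 5.50 and 20.9 CPM in sham and 96.5, 11.5, 5.15 and 95.6 CPM in DOCA-salt mice. Ifit3b was at 5.50 to 41.9 CPM in sham mice and 73.3, 24.4, 0 and 106 CPM in DOCA-salt mice (1.28, edgeR adjusted p = 0.589, and 1.12 without DOCA-salt mouse 1). DOCA-salt mouse 4 was thus as high as DOCA-salt mouse 1 in Cxcl10, Rsad2, Ifit1 and Ifit3b, whereas in Irf7 and Isg15 it was far below that mouse and just above the highest sham mouse. When the members were left out of clustering, its macrophage-like cells (159 in place of 158) had Cxcl10 at 1.56, Rsad2 at 10.9, Ifit1 at 6.24 and Ifit3b at 4.68 CPM. Its score there was 5.12 in place of 5.89. Its cDC2-like cells (21 in place of 20) then had Cxcl10 at 544 and Rsad2 at 263 CPM, and a score of 5.86 in place of 3.91. The class of the cells that held these transcripts in DOCA-salt mouse 4 thus depended on the clustering, and their number was not counted. DOCA-salt mouse 1 stayed highest in macrophage-like cells under that clustering, with Isg15 at 256, Irf7 at 313 and Cxcl10 at 122 CPM.

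By role, 4 of 5 sensors, 3 of 3 transcription factors and 9 of 10 tested effectors had a change above 0 in macrophage-like cells, with medians of 0.07, 0.31 and 0.51. Without DOCA-salt mouse 1 these counts were 0 of 5, 2 of 3 and 4 of 10, with medians of -0.20, 0.12 and -0.01. With all mice the exceptions were Ifi204 (-0.11) and Ifi47 (-0.44). Ifitm3 was at 922, 1244, 803 and 1058 CPM in sham and 1957, 1228, 1015 and 1637 CPM in DOCA-salt mice (0.51 ± 0.19, edgeR adjusted p = 0.376), and differed by 0.34 without DOCA-salt mouse 1. Usp18, which removes Isg15 from proteins and damps the receptor, differed by 0.48, and by -0.11 without DOCA-salt mouse 1. Zbp1 was at 27.5 to 64.5 CPM in sham mice and 121, 44.4, 36.1 and 29.3 CPM in DOCA-salt mice (0.67, and -0.20 without DOCA-salt mouse 1). Ifi27l2a, the most abundant member there, was at 1050 to 1788 CPM in sham and 2588, 1328, 593 and 1354 CPM in DOCA-salt mice (-0.02, and -0.43 without DOCA-salt mouse 1).

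In T-like cells none of 20 members tested passed, beside 27 of 6572 genes (0.411%), and the median was -0.06. An unadjusted p under 0.05 was found for 1 member, Irf9, beside 8.28% of all genes tested, and DESeq2 called 0. Irf9, the DNA-binding part of the complex with Stat2, was at 74.7, 59.4, 56.9 and 59.3 CPM in sham and 53.7, 39.9, 40.5 and 53.0 CPM in DOCA-salt mice, without overlap (-0.37 ± 0.17, edgeR adjusted p = 0.589, and -0.43 without DOCA-salt mouse 1). Bst2 was at 103, 128, 140 and 109 CPM in sham and 218, 102, 96.6 and 116 CPM in DOCA-salt mice (0.22, and -0.11 without DOCA-salt mouse 1). DOCA-salt mouse 1 was highest for 13 of 20 members, beside 9.36% of all genes tested. Without it 2 of 20 members were above 0, the median was -0.29, and Ifi27l2a passed the test at -0.65 (edgeR adjusted p = 0.0281). Over all 6801 genes then tested, 6 passed as higher and 24 as lower.

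In NK-like cells none of 16 members passed, beside 62 of 6573 genes (0.943%). No member had an unadjusted p under 0.05, beside 9.31% of all genes tested. DESeq2 called 0, and the median was 0.00, or -0.10 without DOCA-salt mouse 1. Ifi27l2a was at 29.2, 63.7, 79.9 and 65.4 CPM in sham and 235, 40.8, 60.8 and 63.1 CPM in DOCA-salt mice (0.69 ± 0.41, edgeR adjusted p = 0.653). Only DOCA-salt mouse 1 was outside the sham range upward, and without it the change was -0.15. Ddx58 was at 50.6 to 75.5 CPM in sham and 56.5 to 68.2 in DOCA-salt mice (0.10, and 0.06 without DOCA-salt mouse 1).

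The smaller classes gave no call among members. In classical monocyte-like cells 15 were tested, beside 1 call among 1563 genes (0.064%), with a median of -0.28 and 2 above 0. No member there had an unadjusted p under 0.05, beside 6.65% of all genes tested, and DESeq2 called 0 members. Without DOCA-salt mouse 1 the median of the 8 members then tested was -0.52, and neither Oasl2 nor Rtp4 was among them. Oasl2, a relative of the oligoadenylate synthetases, was at 136, 154, 309 and 363 CPM in sham and 189, 64.7, 43.1 and 51.0 CPM in DOCA-salt mice (-1.11 ± 0.57, edgeR adjusted p = 0.799). Rtp4, a chaperone of receptor transport, was at 137 to 232 CPM in sham and 220, 47.0, 43.1 and 60.7 CPM in DOCA-salt mice (-0.65, edgeR adjusted p = 0.939). In both, DOCA-salt mouse 1 lay within the sham range and the other 3 DOCA-salt mice below it. Sham mice held 3 to 11 cells of this class. The members' median was negative there while their score difference was positive, at 0.98. The score also holds the untested members, and sham mouse 3, with 3 cells, had the lowest score at 3.03.

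In nonclassical monocyte-like cells 5 members were tested and none passed, beside 31 calls among 1696 genes (1.83%). Of these members 2 had an unadjusted p under 0.05, beside 12.7% of all genes tested, and DESeq2 called 0. Ifi27l2a was at 426, 367, 428 and 440 CPM in sham and 899, 230, 607 and 966 CPM in DOCA-salt mice (0.70 ± 0.27, edgeR adjusted p = 0.219, and 0.56 without DOCA-salt mouse 1). It passed without DOCA-salt mouse 2 (1.03, adjusted p = 0.00139). Zbp1 was at 234, 108, 214 and 184 CPM in sham and 130, 37.2, 112 and 164 CPM in DOCA-salt mice (-0.72, edgeR adjusted p = 0.348, and -0.77 without DOCA-salt mouse 1). Here DOCA-salt mouse 1 was highest for 2 of 35 detected members and sham mouse 4 for 19.

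In cDC2-like cells 4 members were tested and no gene of 1005 passed (0%). An unadjusted p under 0.05 was found for 1 member, beside 5.67% of all genes tested, and DESeq2 called 0 members. Ifi27l2a was at 290, 553, 701 and 702 CPM in sham and 356, 51.1, 235 and 310 CPM in DOCA-salt mice (-1.09 ± 0.41, edgeR adjusted p = 0.831, and -1.43 without DOCA-salt mouse 1). Bst2 was at 334, 1043, 382 and 1368 CPM in sham and 447, 511, 958 and 486 CPM in DOCA-salt mice (-0.57, and -0.46 without DOCA-salt mouse 1). In ILC2-like cells no member met the count needed for the test, and no gene of 452 passed (0%).

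**Figure D4:**
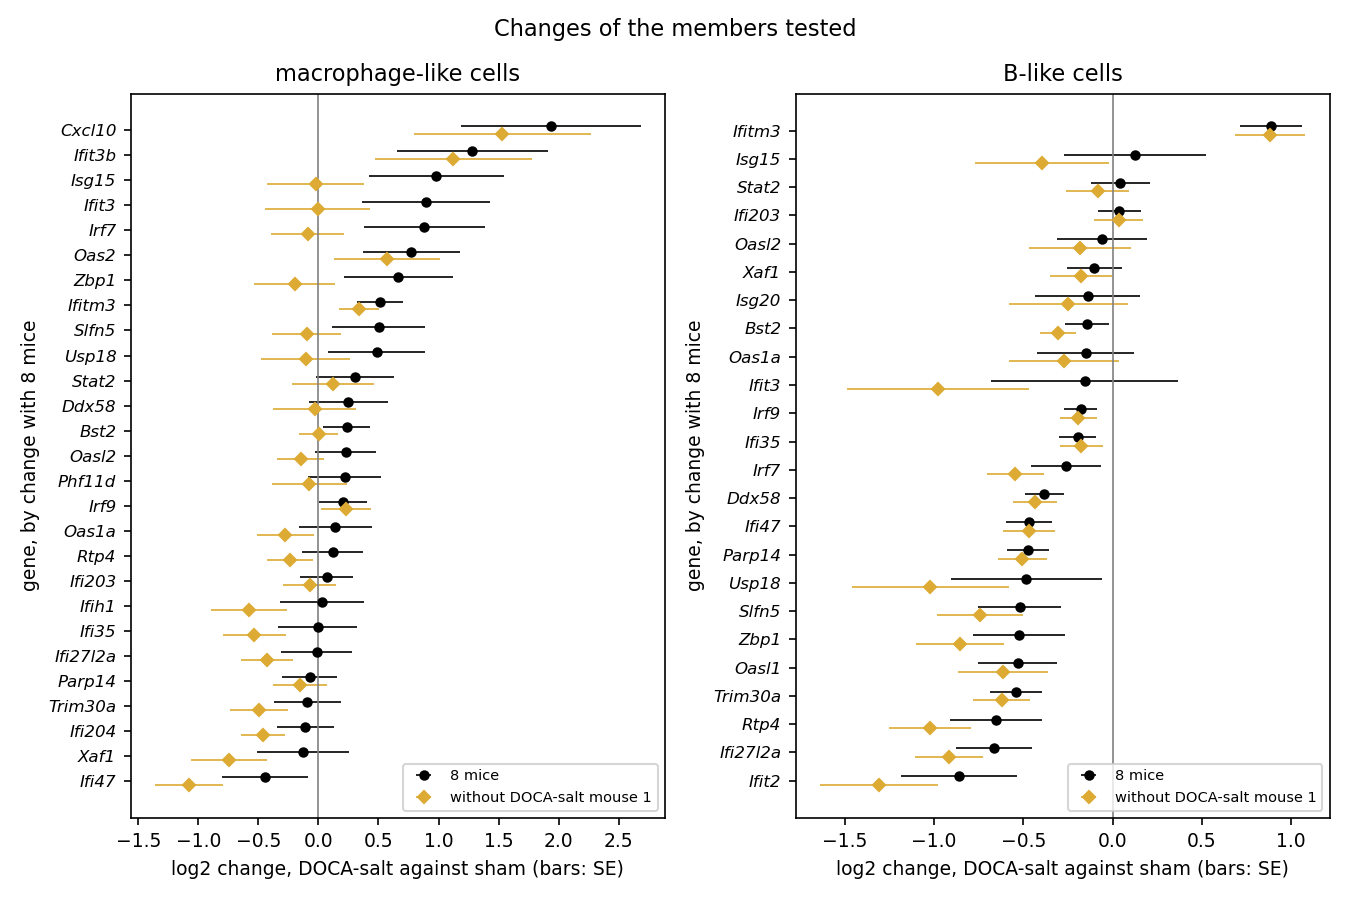
Log2 change of DOCA-salt against sham (x axis) for each tested member (y axis) in macrophage-like and B-like cells, with all 8 mice in black and without DOCA-salt mouse 1 in yellow, and bars of 1 SE. The medians move from 0.23 to -0.10 in macrophage-like cells and from -0.23 to -0.45 in B-like cells.

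Whether the difference between groups itself differed between classes was tested in the 5 classes with at least 10 cells in every mouse, with the mouse as a block. None of 33 members passed, beside 22 of 8774 genes (0.251%). An unadjusted p under 0.05 was found for 7 members and for 630 of the 8774 genes. DESeq2 was not run for this comparison. Ifit2 came nearest (edgeR adjusted p = 0.0596), with a change 2.57 larger in macrophage-like than in B-like cells, followed by Ifi27l2a (edgeR adjusted p = 0.0960) and Rsad2 (edgeR adjusted p = 0.169). Without DOCA-salt mouse 1, Ifi27l2a (edgeR adjusted p = 0.0442) and Ifitm3 (edgeR adjusted p = 0.0470) passed, beside 38 of 8273 genes. Ifi27l2a also passed without DOCA-salt mouse 2 (edgeR adjusted p = 0.00459), beside 14 of 8254 genes. Ifit2 passed without DOCA-salt mouse 3 (edgeR adjusted p = 0.0495), beside 20 of 9438 genes.

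A cell was counted as having a strong response when, thinned to 1500 UMIs, it held UMIs of at least 4 of 19 core genes (18 with a row), among them Isg15, Irf7, Rsad2 and the Ifit and Oas genes. This was met by 134 of 9735 cells, 30 of 3557 sham and 104 of 6178 DOCA-salt cells, and 1209 cells were too shallow. DOCA-salt mouse 1 held 80 of the 134 and supplied 1978 of the 9735 cells. Macrophage-like cells made up 67 of the 134, and it supplied 304 of the 846 cells of that class.

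Among macrophage-like cells the strong response was seen in 1 of 24, 3 of 76, 0 of 43 and 4 of 79 cells of sham mice and in 46 of 304, 4 of 143, 0 of 43 and 9 of 134 cells of DOCA-salt mice. DOCA-salt mouse 1 was at 15.1% (exact Clopper-Pearson 95% interval 11.3% to 19.7%) and DOCA-salt mouse 4 at 6.72% (3.12% to 12.4%). A count of 0 of 43 cells allows a share of up to 6.98% at 3 counts, and the exact interval reaches 8.22%. The means were 3.29% ± 2.25 in sham and 6.16% ± 6.58 in DOCA-salt mice (SD, n = 4 each), and 3.17% ± 3.37 without DOCA-salt mouse 1. Shallow cells left out numbered 89 of 311 in sham and 110 of 734 in DOCA-salt mice. Without thinning the share of DOCA-salt mouse 1 was 36.2% (123 of 340 cells), and the other mice were between 4.92% and 16.6%. Of the 46 strong cells of DOCA-salt mouse 1, 41 lay in the cluster led by C1qa, C1qc and C1qb, 3 in that led by Ccl8 and Spp1 and 2 in that led by cell-cycle genes.

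Lymphoid cells with a strong response were rare. In B-like cells they numbered 0, 3, 4 and 4 in sham mice and 9, 1, 0 and 0 in DOCA-salt mice, of 4702 cells. The means were 0.631% ± 0.564 and 0.286% ± 0.488 (SD, n = 4), and 0.0433% without DOCA-salt mouse 1. T-like cells numbered 1, 1, 1 and 0 in sham and 7, 1, 1 and 0 in DOCA-salt mice, of 1272, and NK-like cells 1, 0, 0 and 0 in sham and 5, 0, 1 and 0 in DOCA-salt mice, of 1748. In each of these 3 classes DOCA-salt mouse 1 held the most strong cells, though in B-like cells its share of 1.01% was below the 1.36% of sham mouse 3. The mean share in DOCA-salt mice went from 0.971% to 0.427% in T-like and from 0.714% to 0.337% in NK-like cells without DOCA-salt mouse 1, beside 0.960% and 0.214% in sham mice. Classical monocyte-like cells gave 5 of 23 in sham and 10 of 136 in DOCA-salt mice, and the mean share was 23.1% over the sham mice against 3.91% over DOCA-salt mice 2 to 4.

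**Figure D5:**
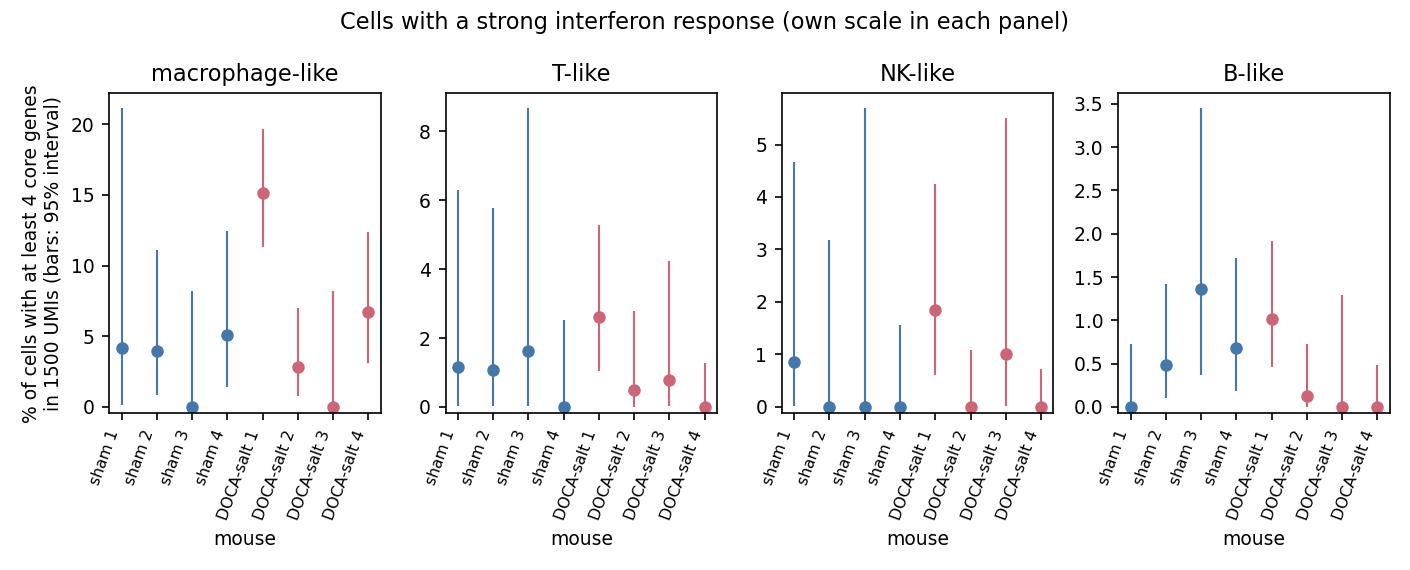
Percent of cells with at least 4 core genes after thinning to 1500 UMIs (y axis, own scale in each panel) for each mouse (x axis) in macrophage-like, T-like, NK-like and B-like cells, with exact 95% intervals that cover counting error only. Macrophage-like cells of DOCA-salt mouse 1 stand at 15.1%, above the 0% to 6.72% of the other mice.

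Of the 21 strong B-like cells, 16 lay in a cluster of 41 cells led by Ifit3, Ifit3b, Oasl1, Ifit1 and Cmpk2. It held 2, 4, 3 and 4 cells of sham mice and 18, 4, 0 and 6 cells of DOCA-salt mice, so it was present in both libraries. DOCA-salt mouse 1 had 1.99% of its B-like cells there (exact 95% interval 1.18% to 3.13%), and the other mice had 0% to 0.984%. It had 39 cells deep enough for the strong rule. The cluster's genes were the values that formed it, and they are given as a description. Isg15 was at 351 CPM in it and 10.1 in other B-like cells, Ifit3 at 351 and 3.82, Irf7 at 515 and 34.1, Ifi27l2a at 1470 and 405, and Ifitm3 at 119 and 37.4. When the 37 members were left out of clustering, the cluster dissolved, with 36 of its cells in 3 B-like clusters. Without the cluster, Ifitm3 in B-like cells differed by 0.88 (edgeR adjusted p = 0.0224) and Trim30a passed at -0.59 (adjusted p = 0.0416).

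The wider pathway was followed in 5 lists of 88 genes, 87 with a row, through the same fits. Interferon transcripts were nearly absent apart from Ifng. Ifnb1 gave 1 UMI in all cells, in a macrophage-like cell, and Ifna1, Ifna2, Ifna4, Ifnl2 and Ifnl3 gave 0. Ifng gave 1140 UMIs, of which NK-like cells held 954 and T-like cells 168. In NK-like cells it was at 304, 121, 191 and 104 CPM in sham and 169, 123, 152 and 134 CPM in DOCA-salt mice (-0.29, edgeR adjusted p = 0.709, and -0.38 without DOCA-salt mouse 1), and the groups overlapped. T-like cells had it at 3.8 to 26.4 CPM in sham and 37.2, 23.8, 6.52 and 23.9 CPM in DOCA-salt mice.

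Among ligands and receptors no gene passed in any class. Ifngr1, the binding chain of the interferon-gamma receptor, was at 370, 588, 481 and 235 CPM in ILC2-like cells of sham mice and 577, 115, 239 and 263 CPM in those of DOCA-salt mice (-0.70, edgeR adjusted p = 0.675, and -1.02 without DOCA-salt mouse 1). Ifngr2, its signalling chain, was at 155 to 272 CPM in sham and 223 to 364 CPM in DOCA-salt classical monocyte-like cells (0.51, edgeR adjusted p = 0.822, and 0.47 without DOCA-salt mouse 1).

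Among signal transducers and regulatory factors 1 gene passed, in NK-like cells. Irf8, a factor of myeloid and lymphoid differentiation that also binds the response element, was at 717, 1128, 941 and 737 CPM in sham and 685, 532, 571 and 704 CPM in DOCA-salt mice. Every DOCA-salt mouse was below every sham mouse, and Irf8 fell by 0.53 on the log2 scale (SE 0.12, edgeR adjusted p = 0.0193), and by 0.57 without DOCA-salt mouse 1 (adjusted p = 0.0264). The call was lost without sham mouse 2 (-0.36, adjusted p = 0.186), sham mouse 3 (adjusted p = 0.0862), DOCA-salt mouse 2 (adjusted p = 0.0823) or DOCA-salt mouse 3 (adjusted p = 0.0533).

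Among upstream sensors and adaptors no gene passed in any class. Myd88, the adaptor of most Toll-like receptors, was at 71.7 to 122 CPM in sham and 112 to 180 CPM in DOCA-salt nonclassical monocyte-like cells (0.65, edgeR adjusted p = 0.349, and 0.68 without DOCA-salt mouse 1). In cDC2-like cells it differed by 0.95 (edgeR adjusted p = 0.857) and was not tested without that mouse. Among the interferon-gamma type GTPases no gene passed either. In macrophage-like cells Igtp differed by -0.40 (edgeR adjusted p = 0.784, and -0.41 without DOCA-salt mouse 1) and Tgtp2 by -0.38 (edgeR adjusted p = 0.869, and -0.31 without it). DOCA-salt mouse 1 was highest for 2 of 15 of these GTPase-list genes in macrophage-like cells, whereas it was highest for 27 of 36 members there. In T-like cells it was highest for 11 of 15 of the GTPase list.

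Among other interferon-induced genes 1 passed, in B-like cells. Ifi206, a PYHIN gene near Ifi203 and Ifi204, was at 40.3, 41.8, 47.1 and 37.1 CPM in sham and 24.9, 17.6, 20.1 and 26.1 CPM in DOCA-salt mice, without overlap. It fell by 0.86 on the log2 scale (SE 0.15, edgeR adjusted p = 0.00704), and by 0.91 without DOCA-salt mouse 1 (adjusted p = 0.0154). Reads of closely related PYHIN genes could have been split between them by the authors' counting, so the share of each is uncertain. Of the 25 genes of this list tested in B-like cells, 4 had a change above 0 (2 without DOCA-salt mouse 1), beside 50.8% of all genes, and the median was -0.22. All DOCA-salt mice were below all sham mice for 8 of them, beside 4.88% of all genes. Of the 11 GTPase-list genes tested there, 4 were above 0 (2 without DOCA-salt mouse 1), with a median of -0.28.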

How the data were processed

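UMI counts of 31053 genes per barcode were deposited by the authors as 2 matrices, 1 per group, with Cell Ranger, Seurat 4 and mm10 named per the submitters' processing notes and software version 3.1.0 per the file headers. The deposited feature and barcode lists hold text identifiers. The sham library holds 4359 barcodes and 13304511 RNA UMIs, the DOCA-salt library 7600 and 29764964. No sample column was left unused.

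Barcodes needed at least 200 genes and no more than 10% of UMIs from mitochondrial genes, which 4254 and 7351 had. Scrublet in scanpy 1.11.5 removed 53 (1.25%) and 243 (3.31%) doublets, and a hashtag margin of 2-fold assigned cells to mice, which 136 and 321 cells failed. Cells were clustered by leidenalg 0.10.2 on 2000 variable genes, 30 components and 15 neighbours at resolution 1. A class needed 3 markers seen in at least 15% of a cluster's cells and raised by a log2 fold of 1. The rules that leave mixed or shallow clusters without a name were made once the clusters were known.

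UMIs were summed per class and mouse, filtered by filterByExpr, scaled by TMM and tested with edgeR 4.0.16 (quasi-likelihood, Benjamini-Hochberg) in R 4.3.3. Tests were run where at least 3 mice per group had 5 cells. DESeq2 1.42.0 was an alternative, beside other scaling, filters, hashtag margins, clusterings, scores and thinning, and each mouse left out. In B-like cells 2 alternatives were added after seeing the data: leaving out the Ifit3-led cluster, and cells with myeloid UMIs. Data were simulated at the depth of each class, with 1 common dispersion (spread between mice) for all its genes and no outlying mouse. There edgeR recovered 84% of genes changed 2-fold in B-like (8614 genes), 66% in macrophage-like (4836) and 62% in classical monocyte-like cells (1563). Recovery of genes that vary more between mice than this, or are high in 1 mouse, was not simulated.

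Members and lists were chosen with earlier results of these data known. Named with values are members past the threshold, the 2 members per class with the largest absolute change at 50 CPM or more, the 5 highest per class, and pathway genes by the same rule. Any further gene was picked with its values in view. Promoters are RefSeq windows, and gene positions GENCODE M21. Intervals and count floors cover counting error only. Values of 1 gene of the wider pathway are not reported here.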

Additional observations from a re-analysis of the deposited data

Results flagged for a closer look

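In 10 of the 68 groups of 4 mice examined, the highest or lowest mouse stood far from the nearest of the other 3. The groups share the same mice and include genes named for large changes, so this count is a description with no chance rate beside it. A group in which only 1 mouse had any strong cell is also flagged. DOCA-salt mouse 1 was that mouse in 6 of them. Its T-like score was 4.86, its share of B-like cells with a strong response 1.01%, its Ifi27l2a in NK-like cells 235 CPM and its Bst2 in T-like cells 218 CPM. In classical monocyte-like cells its Oasl2 was 189 CPM and its Rtp4 220 CPM, each the highest of the DOCA-salt mice. The others were the share of NK-like cells with a strong response in sham mouse 1 (0.855%, which is 1 cell of 117), Irf9 in T-like cells of sham mouse 1 (74.7 CPM), Bst2 in cDC2-like cells of DOCA-salt mouse 3 (958 CPM, from 8 cells) and Ifngr2 in classical monocyte-like cells of sham mouse 1 (272 CPM).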

How the results depend on the processing

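No paired analysis was possible because sham and DOCA-salt mice are different animals and a hashtag number joins none of them across the libraries. Members called, by setting: with no gene filter there were 4 in B-like (Ifitm3, Ifi27l2a, Ifi47 and Trim30a) and 8 in macrophage-like cells (Isg15, Irf7, Cxcl10, Rsad2, Ifit1, Ifit2, Ifit3 and Ifit3b). Classical monocyte-like cells then had 2, Cxcl9 (-4.21) and Cxcl10 (-3.95), and the high Cxcl10 there came from the few cells of sham mouse 4. There were 2 in T-like, 1 in NK-like and 1 in nonclassical monocyte-like cells. In the test between classes 8 members passed, beside 178 of 17267 genes. Counts over all genes without the filter are not given here for single classes. Pathway genes called without the filter were 2 in B-like and 1 each in cDC2-like, macrophage-like and T-like cells. A hashtag margin of 5 left 0 in B-like cells (Ifitm3 0.40, adjusted p = 0.387), as did leaving out cells with a myeloid UMI, while leaving out the Ifit3-led cluster gave 2. Clustering each library alone gave 2 in classical monocyte-like cells, Ifi204 and Ifitm3. The causes were not tested.

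With each mouse left out, members called ranged from 0 to 1 in B-like, T-like and nonclassical monocyte-like cells and from 0 to 2 in the test between classes, and pathway calls from 0 to 1 in NK-like and T-like cells, where Socs3 passed without DOCA-salt mouse 4 (1.05). Ifi206 in B-like cells passed with DESeq2, other scaling, no gene filter and each mouse left out (edgeR or DESeq2 adjusted p from 0.000414 to 0.0337). Its result under other cell filters, hashtag margins, clusterings and the added B-like alternatives is not given here. The sign turned without DOCA-salt mouse 1 for Ifi27l2a in NK-like (-0.15 to 1.01 over the mice left out), Bst2 in T-like (-0.11 to 0.33) and Isg15 in macrophage-like cells (-0.022 to 1.26). The difference in strong-response share moved from -0.346 to -1.16 percentage points in B-like and from 0.50 to 1.27 in NK-like cells thinned to 2500 UMIs, and from 2.87 to 8.37 in macrophage-like and 0.0107 to 1.29 in T-like cells with no thinning. With each mouse left out the macrophage-like difference in that share ran from -0.123 to 4.92, and the T-like one from -0.533 to 0.334. All 91 score alternatives moved by less than 1 SD between mice, though with a mouse left out the macrophage-like score difference ran from -0.0019 to 0.74 and the T-like one from -0.23 to 0.15. Score differences also moved with a pseudocount of 10 (classical monocyte-like 0.98 to 0.30), with members of at least 20 CPM (cDC2-like 0.64 to 0.015, T-like 0.044 to -0.13) and with members left out of clustering (cDC2-like 1.32, macrophage-like 0.37 to 0.16). Thinned to 2500 UMIs, the macrophage-like difference in strong-response share was -0.213. Cell numbers limit the tests: sham mice held 3 to 11 classical monocyte-like, 2 to 11 cDC2-like and 35 to 111 macrophage-like cells.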
